A study of Mus musculus with 36 samples.

Results

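Organoids of the mouse small intestine were compared after culture in medium conditioned by senescent fibroblasts (SCM) and in medium conditioned by quiescent fibroblasts (QCM). The comparison rests on 12 of the 36 RNA libraries of the series, which were chosen by their treatment labels. They are the 6 libraries of SCM + IgG and the 6 of QCM + IgG. The other 4 conditions, also of 6 libraries each, entered the same model and are used only to place the genes described.

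All cultures came from jejunal crypts of C57BL/6 mice whose age the labels do not give. The design names 6 mice as their origin, and each condition has the replicate numbers 1 to 6. The labels do not say that a number marks a mouse, and as far as libraries do not come from separate mice the p-values measure only the spread between these samples. Every culture of both groups received IgG, which is the control for an antibody against Ptk7 used elsewhere in the series. The fibroblasts were mouse embryonic fibroblasts. Those for QCM had been growth arrested in low serum. Those for SCM had been made senescent with X-rays or doxorubicin, then kept in full serum for longer, and the sources used here do not state which inducer gave the medium of these libraries. Both kinds of medium were collected without serum, concentrated, matched by cell number and mixed with the organoid growth medium. The groups therefore differ in senescence together with serum history and time in culture, which cannot be told apart.

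Intestinal organoids are closed epithelial structures in which stem cells at the crypt base divide and give rise to absorptive enterocytes and to secretory Paneth, goblet, enteroendocrine and tuft cells. Senescent fibroblasts stop dividing but remain active and release a mixture of growth factors, cytokines, proteases and matrix proteins known as the senescence-associated secretory phenotype (SASP). Quiescent fibroblasts are arrested as well, but reversibly and without that programme. Damaged or inflamed gut epithelium is known to switch on genes of the fetal intestine, many of them under the transcriptional coactivator YAP and its partners of the TEAD family.

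The deposited values are counts of reads per gene. The 12 libraries held between 10213464 and 17072397 counts, with a median of 15242533. Levels are given as CPM, the counts of a gene relative to the library's total scaled to a fixed size, after scaling of each library by the trimmed mean of M values (TMM), and in bulk RNA fewer cells of a type and less RNA per cell cannot be told apart. Most genes of fibroblasts and of immune or endothelial cells were near 0. Of 18 fibroblast and mesenchymal genes, 14 stayed under 1 CPM in every one of the 12 libraries, Col3a1 and Dcn had no count at all, and the list summed to between 5.79 and 11.6 CPM in QCM and between 1.49 and 11.9 CPM in SCM. Of 18 immune and endothelial genes, 14 stayed under 1 CPM, and Cd3e and Cdh5 had no count. That list summed to between 12.4 and 18.2 CPM in QCM and between 13.2 and 18.2 CPM in SCM, most of it from Csf1r, which averaged 11.9 and 13.6 CPM. The defining epithelial genes were high, with a median of 625 CPM for Olfm4, a stem cell gene, in QCM.

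A gene was called at a Benjamini-Hochberg adjusted p under 0.05 (edgeR's quasi-likelihood test) and a fold change over 1.5. Of 15497 genes tested, 140 were called between SCM and QCM, which is 0.903% of them. SCM raised 118 genes (0.761%) and lowered 22 (0.142%). Raised genes had a median log2 fold change of 1.19 and lowered genes one of −0.76. Of the raised genes, 73 changed by more than 2-fold and 17 by more than 4-fold, against 3 and 1 of the lowered genes. CPM did not overlap between the 6 SCM and the 6 QCM libraries for 58 of the raised and 14 of the lowered genes, and for 340 (2.19%) of all genes tested. The count was not stable to single libraries, and was 48, 35 and 47 without QCM replicate 2, 3 or 4 and 54, 85 and 91 without SCM replicate 1, 5 or 6. Of the 40 called genes that the naming rule gave, for which the libraries were left out in turn, Clu, P2rx2, Tnfrsf11b, Thbs1, Cav2, Sprr2a3, Skil and Id1 kept their call without any one of the 12 libraries. The others of the 40 lost it in at least 1 of the 12 fits, among them Gm6652 in 10, Ptgs2 in 9, Ccn2, Cd44, Krt23, Wfdc2 and Vps9d1 in 8 and Atp2c2, Sord and Ttc39c in 7.

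The replicate numbers were not accepted as pairing the libraries, for which each number needed a correlation over 0.1. A correlation over all genes cannot exclude a pairing that shows in part of them. The deviations of SCM and QCM libraries of one number from their group means correlated over all genes at 0.177 or less, and at over 0.1 for only 2 of the 6 numbers. With the number as a block in the model the count was 496, with 425 genes raised (2.74%) and 71 lowered (0.458%). All calls described here are from the model without the block, and some genes given as not called, among them Anxa1, Anxa2, Anxa3, Anxa10, Smoc2 and Slc13a2, were called with it. Part of the genes did keep to the number. Of all genes tested, 1627 (10.5%) had over 50% of their variance within conditions between the numbers. Among the 118 raised genes 66 did (55.9%), and among the 22 lowered genes 10 did. The insulin-degrading enzyme gene Ide, named after its values were seen, stayed between 170 and 229 CPM in the number 1 libraries of all 6 conditions and between 368 and 457 CPM in those of number 6.

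**Figure D1:**
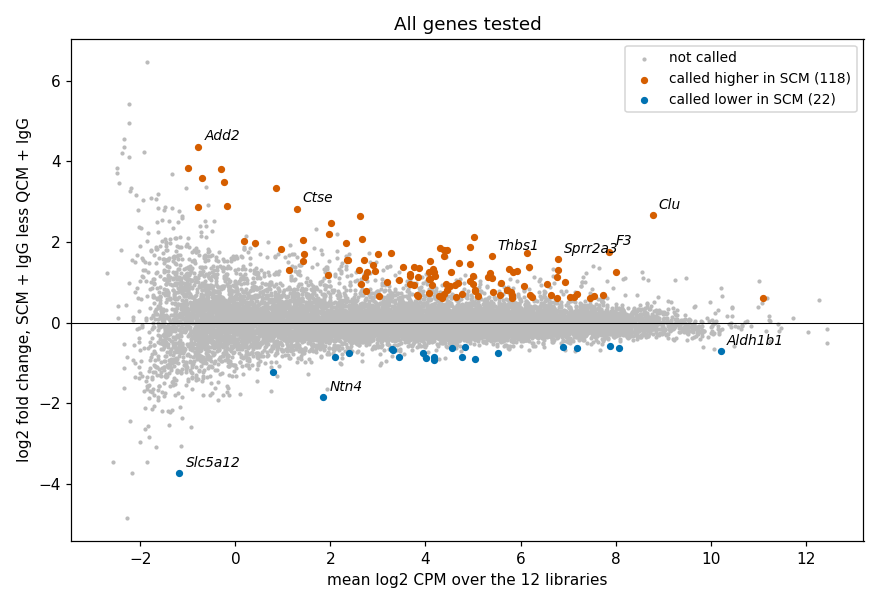
Each point is one of the 15497 genes tested, with its mean log2 CPM over the 12 libraries on the horizontal axis and its log2 fold change (SCM + IgG less QCM + IgG) on the vertical axis. The 118 genes called higher in SCM (orange) reach further from 0 than the 22 called lower (blue), and Clu stands out as a large rise of an abundant gene.

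Promoter stretches are shown for 4 raised genes, chosen because they hold a match, to give the sequence around GGAATG, the core of TEAD sites, and TGANTCA, the core of AP-1 sites. Both were searched on both strands from 250 bases before to 50 after each RefSeq start (GRCm38.p6). Matches are in capitals, and each stretch ends before the start and is written 5′ to 3′ on the gene's strand.
Ccn1, chr3:145650052-145650118, minus strand: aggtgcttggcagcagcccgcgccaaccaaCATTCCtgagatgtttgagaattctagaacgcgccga
F3, chr3:121723361-121723438, plus strand: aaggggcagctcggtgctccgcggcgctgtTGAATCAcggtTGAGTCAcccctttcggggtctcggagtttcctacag
Cav2, chr6:17281063-17281129, plus strand: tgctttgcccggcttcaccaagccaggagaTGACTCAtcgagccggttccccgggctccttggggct
Col18a1, chr10:77113723-77113839, minus strand: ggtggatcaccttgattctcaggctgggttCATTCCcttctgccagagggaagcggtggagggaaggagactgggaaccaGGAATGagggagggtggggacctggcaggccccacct
The TEAD core stands before Ccn1 and, at 2 places, before a start of Col18a1 that lies inside the gene, downstream of its first start, and the AP-1 core before Cav2 and, at 2 places, before F3. Of 110 promoters of 83 raised genes, 15.5% held GGAATG, against 12.5% of the promoters of tested genes and 14.7% of all 32851 in the table. TGANTCA stood in 9.09% of them, against 5.33% and 7.81%. Of 13 promoters of 11 lowered genes, 7.69% held each motif. These shares are a description and say nothing of binding.

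Clu (chromosome 14, 65968483 to 65981547, GRCm38), which encodes the secreted chaperone clusterin and marks revival stem cells of the injured crypt, had the largest rise among raised genes with separate groups and a mean log2 CPM over 1. Its level was 96.1 to 310 CPM (median 169) in QCM and 604 to 1979 CPM (median 1093) in SCM. The groups did not overlap, and the ratio of the SCM to the QCM library of the same number lay between 5.74-fold and 7.10-fold. On the log2 scale this was a rise of 2.66 (standard error 0.42), with an adjusted p of 0.000616. Clu stayed called under every setting tried and without any one library.

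P2rx2 (chromosome 5, 110339812 to 110343212), an ATP-gated cation channel, was at 1.52 to 3.80 CPM (median 2.40) in QCM and at 8.95 to 24.2 CPM (median 14.96) in SCM, a log2 fold change of 2.65 (adjusted p = 0.000575). Tnfrsf11b (chromosome 15, 54250619 to 54278484), which encodes the decoy receptor osteoprotegerin, was at 7.75 to 19.3 CPM (median 10.9) in QCM. In SCM it was at 29.7 to 41.0 CPM (median 38.5), and its log2 fold change was 1.66 (adjusted p = 0.000318). Both genes were higher in SCM in all 6 numbers. Together with Clu and Igfbp4, an IGF-binding protein named here after its values were seen (log2 fold change 1.28, adjusted p = 4.09e-07), they were the only 4 genes that changed by significantly more than 1.5-fold in a test against that fold (glmTreat).

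Integrins, laminins and related genes anchor the epithelium to its basement membrane. Of 24 tested, 3 were called higher (Lama3, Thbs1 and Cd44, the hyaluronan receptor) and 1 lower (Ntn4), where 0.761% and 0.142% of all genes tested were, with a median log2 fold change of 0.59 against −0.01 over all genes tested. Lama3, a laminin chain of the epithelial basement membrane, lay between 9.38 and 25.8 CPM (median 17.3) in QCM and between 37.3 and 119 CPM (median 63.0) in SCM, with a log2 fold change of 2.13 (adjusted p = 0.0216). Col18a1 (chromosome 10, 77052178 to 77166548), the collagen XVIII chain from which endostatin is cut, rose by 2.08 (adjusted p = 0.015), from 2.00 to 5.95 CPM up to 6.06 to 22.02 CPM. The groups of Col18a1 were separate by a narrow margin, and the gene missed the threshold with voom and limma (adjusted p = 0.0545 on quantile-normalized values). Thbs1 (chromosome 2, 118111876 to 118127133), the matrix glycoprotein thrombospondin-1, was at 11.98 to 46.1 CPM (median 23.1) in QCM and at 51.3 to 97.3 CPM (median 85.7) in SCM, with a log2 fold change of 1.65 (adjusted p = 0.00281). Between libraries of the same number, Thbs1 was 1.72-fold to 7.59-fold higher in SCM.

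Ntn4 (chromosome 10, 93640681 to 93747207) moved the other way. It encodes netrin-4, a laminin-binding protein that loosens laminin networks. Its level was 5.92 to 11.9 CPM (median 7.08) in QCM and 0.0651 to 3.56 CPM (median 2.60) in SCM, the lowest value being that of replicate 1. It fell by 1.84 on the log2 scale (standard error 0.40, adjusted p = 0.0145), the largest fall among lowered genes with separate groups and a mean log2 CPM over 1.

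Among members not called were the integrins Itgb6 and Itgb4, the laminin chain Lama5 and the collagen IV chains Col4a1 and Col4a2, with log2 fold changes between 0.61 and 1.07.

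The other large rises spanned several functions. Aldh1a3, an enzyme that makes retinoic acid, was at 0.847 to 3.57 CPM in QCM and at 4.84 to 27.9 CPM in SCM (log2 fold change 2.47, adjusted p = 0.0267), and it was not called by voom and limma (adjusted p = 0.0808 on quantile-normalized values). Prss22, a secreted serine protease, was at 0.511 to 2.23 CPM in QCM and 3.44 to 10.4 CPM in SCM (2.05, adjusted p = 0.0267). Cav2, a protein of caveolae, rose from 4.37 to 19.8 CPM up to 24.1 to 83.6 CPM (1.86, adjusted p = 0.00732). None of these overlapped between the groups, although the levels of Aldh1a3 and Prss22 were low.

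Ptgs2, the inducible cyclooxygenase that makes prostaglandins, was at 1.69 to 8.51 CPM (median 4.70) in QCM and 10.7 to 19.7 CPM (median 15.1) in SCM (log2 fold change 1.70, adjusted p = 0.0431), a call lost in 9 of the 12 fits without 1 library. Sprr2a3, a small proline-rich protein of cornified envelopes, went from 41.6 to 97.6 CPM up to 143 to 324 CPM (1.59, adjusted p = 0.00437). It belongs to a family of near-identical genes between which the counting could divide reads. Mycn, a transcription factor of the Myc family, was at 1.42 to 6.13 CPM in QCM and in the narrow range of 7.87 to 10.2 CPM in SCM (1.55, adjusted p = 0.0166).

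**Figure D2:**
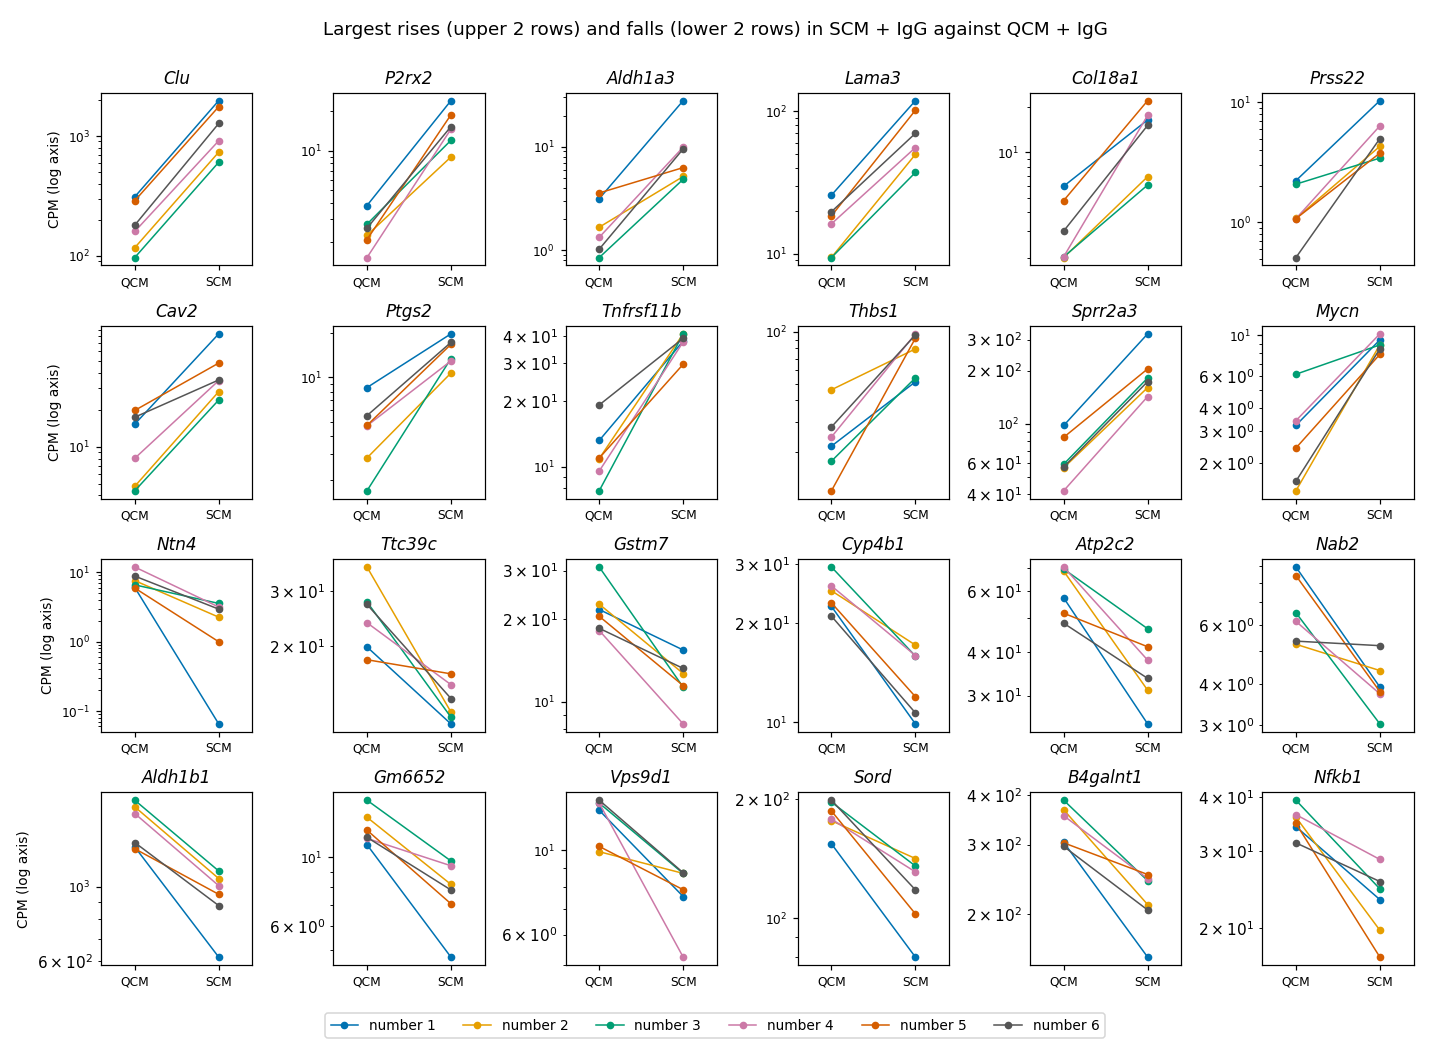
CPM on log axes in the 6 QCM + IgG and the 6 SCM + IgG libraries for the 12 largest named rises (upper 2 rows) and the 12 largest named falls (lower 2 rows), with a line for each replicate number. The genes were chosen for groups that do not overlap, which also fixes the direction of the lines, so the panels show the levels and the spread within each group.

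The named falls other than Ntn4 were all under 2-fold. The most abundant was Aldh1b1 (chromosome 4, 45799022 to 45804604), a mitochondrial aldehyde dehydrogenase found in intestinal stem and progenitor cells. It was at 1300.2 to 1815 CPM (median 1507) in QCM and 618 to 1116 CPM (median 980) in SCM, and fell by 0.70 on the log2 scale (standard error 0.18, adjusted p = 0.0319). B4galnt1 (chromosome 10, 127165225 to 127172330), which makes complex gangliosides, fell from 297 to 389 CPM down to 156 to 252 CPM (−0.62, adjusted p = 0.00821). Sord, which converts sorbitol to fructose, was at 154 to 199 CPM in QCM and 79.8 to 142 CPM in SCM (−0.62, adjusted p = 0.0332). In Aldh1b1, B4galnt1 and Sord the lowest SCM library was that of number 1.

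Cyp4b1, a cytochrome P450 that acts on fatty acids, fell from 20.9 to 29.5 CPM down to 9.90 to 17.1 CPM (log2 fold change −0.84, adjusted p = 0.0131). Gstm7, a glutathione transferase, fell from 18.2 to 30.9 CPM down to 8.32 to 15.4 CPM (−0.87, adjusted p = 0.0299). Atp2c2, a calcium and manganese pump of the secretory pathway, was at 48.4 to 70.3 CPM in QCM and 24.9 to 46.7 CPM in SCM (−0.76, adjusted p = 0.0332). The groups of these 3 genes were separate.

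Nfkb1, the p105/p50 subunit of NF-kB, was at 31.4 to 39.4 CPM in QCM and 17.1 to 28.8 CPM in SCM (log2 fold change −0.61, adjusted p = 0.0166). Ttc39c (−0.93, adjusted p = 0.0309), Nab2, a corepressor of Egr factors (−0.76, adjusted p = 0.0229), Vps9d1 (−0.64, adjusted p = 0.0359) and the processed pseudogene Gm6652 (−0.68, adjusted p = 0.0499) completed the list. The calls of Nab2, Vps9d1 and Gm6652 were lost without the filter on low counts (adjusted p = 0.0572, 0.072 and 0.0941). That of Gm6652 was also lost with upper-quartile scaling (adjusted p = 0.0519) and library size alone (0.0609), and that of Nab2 with only the 12 libraries in the fit (0.0502).

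Genes of the fetal and revival state formed the list with the highest median. Of 19 tested, 5 were called higher and none lower, where 0.761% of all genes tested were called higher, and the median log2 fold change was 1.13. Besides Clu these included Ctse, the gastric protease cathepsin E (2.83, adjusted p = 0.0328), and the annexins Anxa8 (1.89, adjusted p = 0.0233) and Anxa5 (1.00, adjusted p = 0.0399). Ctse was at 0 to 3.43 CPM in QCM and 1.28 to 18.3 CPM in SCM with overlap, and it was not called by voom and limma (adjusted p = 0.272 on quantile-normalized values). Anxa8 was higher in SCM by 2.89-fold to 5.51-fold in each number. Of the members not called in the model without the block, Anxa1, Anxa2, Anxa3, Anxa10, Krt7, Msln, Ly6a, Ly6d, Il1rn and Trim29 had log2 fold changes between 0.85 and 2.21. Anxa2, for example, averaged 1542 CPM in QCM and 3158 CPM in SCM (log2 fold change 1.03, adjusted p = 0.092).

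YAP/TEAD targets gave 3 of 20 called higher, none lower, and a median log2 fold change of 0.69. For this list and the squamous, serpin, EGFR and BMP lists, the share of all genes tested that was called higher is again 0.761%. Ccn1 (chromosome 3, 145646976 to 145649981), a matricellular growth regulator, was at 22.98 to 33.4 CPM in QCM and 34.3 to 94.0 CPM in SCM, a log2 fold change of 1.24 (adjusted p = 0.0166). Its close relative Ccn2 was at 2.80 to 23.2 CPM in QCM and 17.9 to 69.7 CPM in SCM, which overlap, and its log2 fold change of 1.81 barely passed the threshold (adjusted p = 0.04997, and 0.0594 without the filter on low counts). F3 (chromosome 3, 121723537 to 121735048), the initiator of coagulation known as tissue factor, was at 63.8 to 217 CPM in QCM and 186 to 815 CPM in SCM (1.77, adjusted p = 0.0252). Within each number F3 rose by 2.92-fold to 3.76-fold, although the groups as a whole overlapped.

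Squamous and keratinization genes had a median log2 fold change of 1.00, and 2 of 15 were called higher, Sprr2a3 and the keratin Krt23, which went from 44.3 to 121 CPM up to 84.4 to 291 CPM (1.12, adjusted p = 0.0472, and 0.0563 without the filter). Of the epithelial serpins and proteases, 3 of 16 were called higher (median 0.68), namely Prss22, Wfdc2, a protease inhibitor of mucosal surfaces (1.37, adjusted p = 0.0455, and 0.0572 without the filter), and Mmp7, a matrix metalloproteinase of Paneth cells that activates their defensins (0.68, adjusted p = 0.022).

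Among EGFR ligands and ERK response genes, 1 of 25 was called higher, Btc, which encodes the ligand betacellulin (26.3 to 56.7 CPM in QCM and 51.8 to 101 CPM in SCM, log2 fold change 0.81, adjusted p = 0.0299). The list had a median of 0.53. Of 19 BMP and TGF-beta response genes, 3 were called higher (median 0.28). Pmepa1, a feedback inhibitor of TGF-beta signaling, was at 35.2 to 73.4 CPM in QCM and 57.0 to 214 CPM in SCM (1.39, adjusted p = 0.0332). Skil, a corepressor of Smad proteins, was at 21.9 to 29.4 CPM and 52.8 to 71.1 CPM (1.13, adjusted p = 0.000708), and Id1, an inhibitor of differentiation induced by BMP, at 13.1 to 21.8 CPM and 24.4 to 33.3 CPM (0.96, adjusted p = 0.000974). The groups of Skil and Id1 did not overlap.

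**Figure D3:**
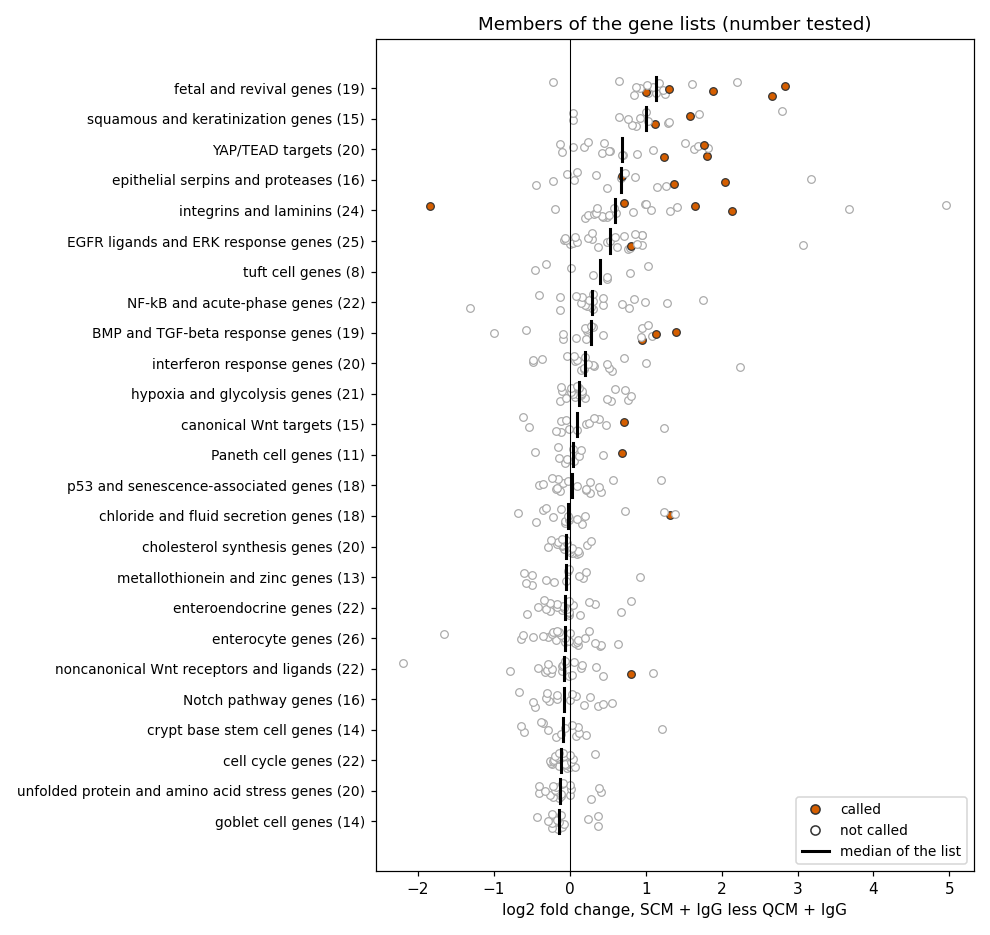
Each circle is a tested member of a gene list at its log2 fold change (SCM + IgG less QCM + IgG), filled where called, and the bar is the median of the list (lists with fewer than 8 members tested are not drawn). Fetal, squamous and YAP/TEAD genes lie mostly to the right, with medians of 1.13, 1.00 and 0.69. The medians of goblet, cell cycle and stem cell genes are −0.15, −0.12 and −0.09.

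For the genes that mark the cell types of the crypt and villus the counts are to be set against the 0.903% of all genes tested that were called, a share at which lists of this size hold few calls or none. None of 14 crypt base stem cell genes was called (median log2 fold change −0.09). Lgr5, the receptor that marks crypt base stem cells, was at 91.3 to 220 CPM (median 172) in QCM and 70.7 to 238 CPM (median 140) in SCM, with a log2 difference of −0.19 (standard error 0.22, adjusted p = 0.722). Olfm4 was at 411 to 751 CPM in QCM and 413 to 754 CPM in SCM (0.09, standard error 0.26, adjusted p = 0.907). The ranges overlap widely in both genes. Smoc2, another stem cell gene, averaged 1141 CPM in QCM and 752 CPM in SCM, with a log2 fold change of −0.60 (adjusted p = 0.0554).

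None of 14 goblet cell genes was called (median −0.15). The list median by number ran from −0.43 to −0.04, and 3 of the 14 log2 fold changes were positive. Muc2, the main mucin of goblet cells, was at 18.4 to 43.3 CPM in QCM and 14.9 to 37.3 CPM in SCM (−0.15, standard error 0.24, adjusted p = 0.804). None of 22 enteroendocrine genes was called (median −0.06), and 6 had a positive log2 fold change. Neurog3 (−0.57, adjusted p = 0.13) was called lower only with the block, and Cpe (0.80, adjusted p = 0.262) higher only with it. Chga, which encodes chromogranin A, was at 81.3 to 111 CPM in QCM and 66.4 to 125 CPM in SCM (0.13, standard error 0.14, adjusted p = 0.694). None of 8 tuft cell genes tested was called (median 0.40), and all were low, with the whole list at 18.2 CPM or less in any library.

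Lyz1, a lysozyme of Paneth cells, was at 609 to 698 CPM in QCM and 476 to 699 CPM in SCM (log2 fold change −0.06, standard error 0.12, adjusted p = 0.853), and Mmp7 was the only one of 11 Paneth cell genes called (median 0.04). None of 26 enterocyte genes was called (median −0.07). Alpi, the alkaline phosphatase of the brush border, was at 78.3 to 111 CPM in QCM and 108 to 173 CPM in SCM (0.40, standard error 0.16, adjusted p = 0.183), and it was higher in SCM in all 6 numbers. Slc13a2, a citrate transporter, was at 3.70 to 17.2 CPM in QCM and 0.498 to 6.06 CPM in SCM (−1.65, adjusted p = 0.0567), lower in SCM in all 6 numbers.

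None of 22 cell cycle genes was called, with a median of −0.12. The list median by number ran from −0.18 to −0.07, and 5 of the 22 log2 fold changes were positive. Summed CPM of the list was 4281 to 4535 in QCM and 3823 to 4194 in SCM, a small fall that was not tested as a set. Mki67, the proliferation marker, was at 250 to 313 CPM in QCM and 222 to 307 CPM in SCM (−0.04, standard error 0.11, adjusted p = 0.9). Ptk7, a Wnt coreceptor and the target of the antibody used elsewhere in the series, was at 5.32 to 12.4 CPM in QCM and 4.62 to 18.1 CPM in SCM (0.43, standard error 0.25, adjusted p = 0.393). It was higher in 4 of the 6 numbers. Of 22 noncanonical Wnt receptors and ligands (median −0.08), 1 was called, the planar polarity protein Vangl1 (0.81, adjusted p = 0.0317), and of 15 canonical Wnt targets (median 0.10) 1 was called, Cd44 (0.71, adjusted p = 0.0468, and 0.0577 without the filter). Over all genes tested 0.903% were called, and single calls in lists of this size are read no further.

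No member was called in the lists of NF-kB and acute-phase genes (22 tested, median 0.29), interferon response (20, median 0.20), Notch pathway (16, median −0.08), p53 and senescence-associated genes (18, median 0.03), cholesterol synthesis (20, median −0.05), hypoxia and glycolysis (21, median 0.13), unfolded protein and amino acid stress (20, median −0.13) or metallothioneins and zinc transporters (13, median −0.05). Herpud1, a gene of the unfolded protein response, had a log2 fold change of −0.41 (adjusted p = 0.00326), which is under the fold required. Among 18 genes of chloride and fluid secretion (median −0.02), Ano1, a calcium-activated chloride channel, was called higher, as were 0.761% of all genes tested, from 46.1 to 118 CPM up to 121 to 267 CPM (1.32, adjusted p = 0.0252).

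The genes called between SCM and QCM were then followed in libraries outside the contrast that called them, although 1 estimate of the spread was shared by the whole model. Complete media + IgG is the growth medium without fibroblast products, Wnt5a + IgG is the same medium with the noncanonical ligand Wnt5a, and SCM + anti-Ptk7 is SCM with the antibody. Against complete media, Wnt5a raised 106 of the 118 genes raised by SCM over QCM (89.8%), where it raised 8.29% of all genes tested, and it lowered 14 of the 22 lowered genes (63.6%), where it lowered 1.88% of all. No gene was called in the opposite direction. Over the 118 genes the median log2 fold change in Wnt5a was 2.11, with 0.01 over all genes. Called genes are by selection those whose changes are large beside their spread, so all genes tested are a loose background, and the cultures of a number may share a mouse.

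With SCM + anti-Ptk7 set against complete media, 73 of the raised genes were called higher (61.9%, against 4.52% of all genes) and 9 of the 22 were called lower (40.9%, against 1.34%). The sign of the change was the same for 111 of the 118 raised and 19 of the 22 lowered genes. Those called in the opposite direction were Lgals1, called lower (log2 fold change −0.68, adjusted p = 0.0163), and Gm13421, called higher (0.97, adjusted p = 0.0316). Both were named after their values were seen. Clu was 6.21 higher in Wnt5a and 3.61 higher in SCM + anti-Ptk7 on the log2 scale (adjusted p = 6.21e-11 and 4.34e-07). Ccn2 differed between the 2 comparisons, at 3.21 in Wnt5a (adjusted p = 3.63e-05) and −0.23 in SCM + anti-Ptk7 (adjusted p = 0.839), and the difference itself was not tested here. Prss22 was at 3.23 in Wnt5a (adjusted p = 2.78e-05) and at 0.21 in SCM + anti-Ptk7 (adjusted p = 0.856).

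**Figure D4:**
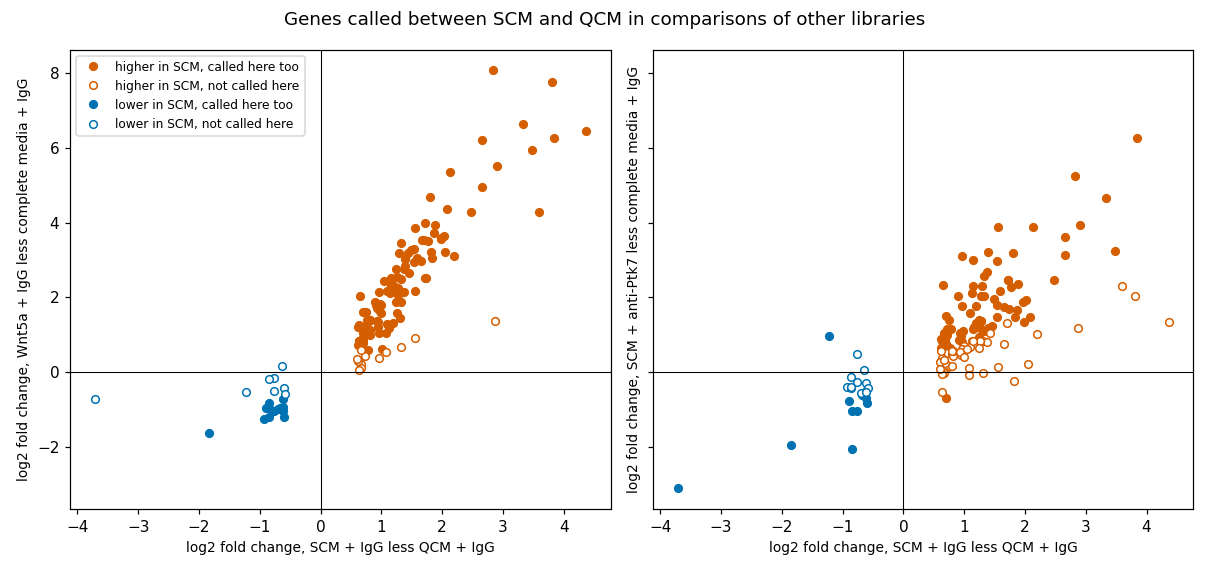
The 140 genes called between SCM + IgG and QCM + IgG, with that log2 fold change on the horizontal axis and on the vertical axis their log2 fold change in Wnt5a + IgG (left) or SCM + anti-Ptk7 (right) against complete media + IgG, filled where called there too. All 118 raised genes lie above 0 on the left, and 111 do on the right.

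The levels placed QCM between complete media and SCM for most raised genes. The mean in QCM was above that in complete media for 101 of the 118 raised genes, as for 54.4% of all genes tested, and the mean in SCM was above it for 118. For the lowered genes the mean in QCM was below complete media in 14 of 22 and the mean in SCM in 22. These orders share the QCM or SCM libraries with the calls. Median CPM of Clu was 41.9 in complete media, 169 in QCM, 1093 in SCM, 558 in SCM + anti-Ptk7, 2837 in Wnt5a and 2258 in Wnt5a + anti-Ptk7. Median CPM of Ntn4 was 15.3, 7.08, 2.60, 4.82, 5.53 and 4.37 in the same order. The mean in SCM + anti-Ptk7 lay between those in QCM and SCM for 90 of the raised genes, above SCM for 22 and below QCM for 6. Among the 22 lowered genes it lay between them for 15. The calls themselves set the QCM and SCM means apart, and no such share was taken over all genes. An effect of the antibody was not tested by these counts.

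**Figure D5:**
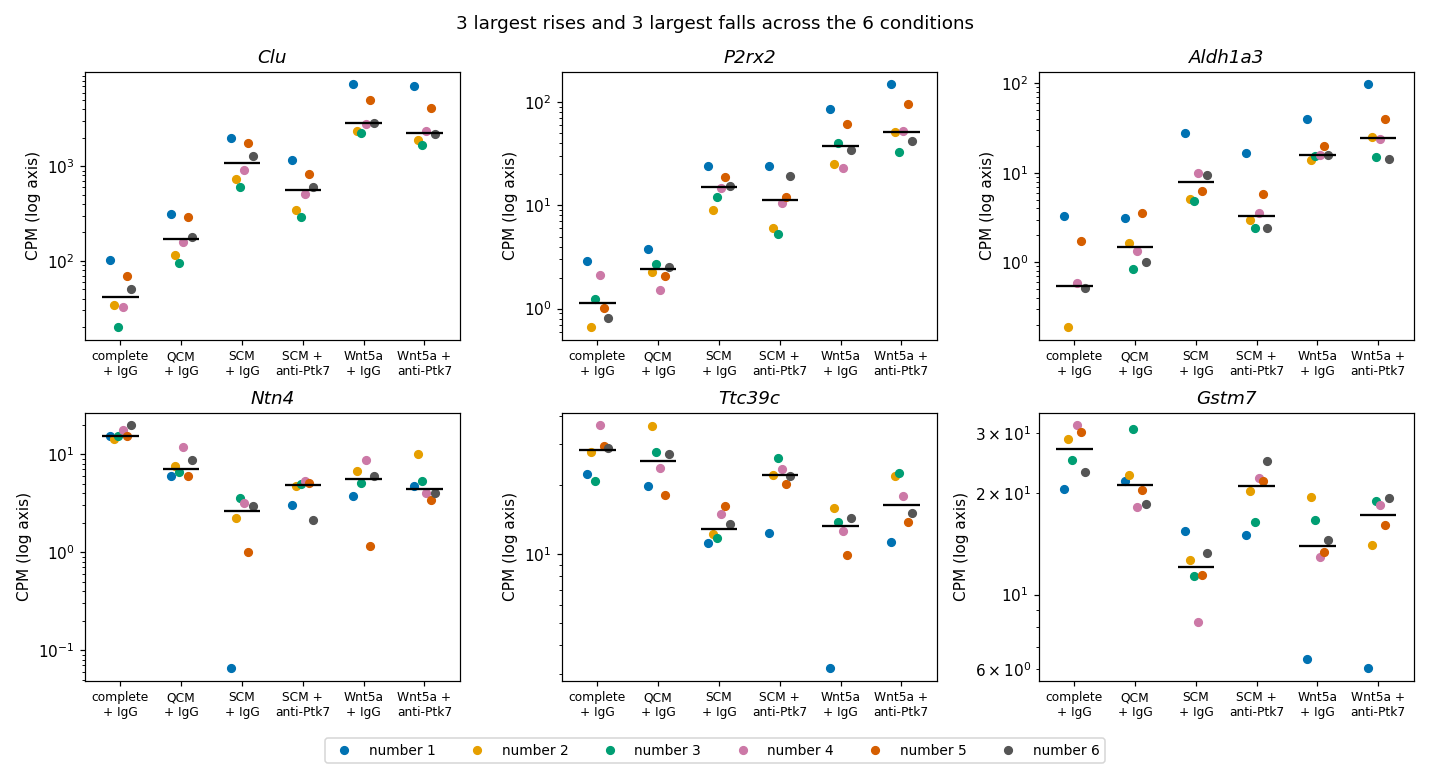
CPM on log axes in each library of the 6 conditions for the 3 largest named rises (upper row) and falls (lower row), with the replicate number in colour and the median as a bar (1 library of complete media at 0 CPM for Aldh1a3 is not drawn). The libraries numbered 1 and 5 are the highest for Clu in every condition, and SCM lies above QCM for the rises and below it for the falls.

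The median log2 difference between SCM and QCM over the 118 raised genes was 1.23 for number 1, 1.05 for number 2, 1.00 for number 3, 1.09 for number 4, 1.25 for number 5 and 1.06 for number 6. Of the raised genes 113 were higher in SCM in all 6 numbers, and all 22 lowered genes were lower in all 6, where 962 of all genes tested were higher and 836 lower in all 6. These values come from the libraries that gave the calls and set libraries side by side by number only. The raised genes with over 50% of their variance within conditions between the numbers were 66 of 118 (55.9%), against 10.5% of all genes.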

How the data were processed

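Counts per gene of 36 libraries were used, of which 6 SCM + IgG and 6 QCM + IgG libraries were compared. Per the labels, cDNA was made from 2 ng of total RNA with a Smart-Seq kit, and the submitters' processing notes name GSNAP and mm10. The authors aligned the reads, counted those within coding sequence per gene and deposited these counts without normalization. The gene annotation and any use of strand are not given in the sources used here. The deposited table of the whole series was not used here.

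Names and positions came from GENCODE M21 (GRCm38), in which 233 of 52636 identifiers had no symbol. Genes passing filterByExpr were fitted with edgeR 4.0.16 (R 4.3.3) in 1 model of 6 condition means with TMM scaling and tested with glmQLFTest, with Benjamini-Hochberg adjustment over all genes. Calls needed an adjusted p under 0.05 and a fold over 1.5. CPM uses TMM-scaled library sizes, and log2 differences within a number use log2 CPM with a prior count of 2. Alternatives used limma 3.58.1, DESeq2 1.42.0, other scalings, filters, thresholds and left-out libraries. The fits were tested on simulated data.

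The labels give each condition the numbers 1 to 6 and the design names 6 mice, but no source used here states that a number is a mouse. Over all genes, deviations of SCM and QCM libraries of a number correlated at 0.177, 0.0659, 0.138, 0.0612, −0.0442 and −0.0277 for numbers 1 to 6. Pairing was to be accepted only with every correlation over 0.1, so it was not accepted, and the block stayed an alternative. Its counts of calls were already known when this was weighed. Within each group, libraries differed from one another far beyond sampling noise (chi-square per gene at least 7.28). Each counted as 1 sample, although such a difference cannot show that libraries come from separate mice. At these depths genes near 1 CPM are limited by counting error.

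Named genes were the 12 largest rises and falls among called genes with separate groups and a mean log2 CPM over 1, Ptk7 and 7 cell type markers, and up to 4 called members of each of 27 gene lists (or up to 2 tested ones). The comparison and the lists were chosen with earlier results of these data known. Some list members that the rule names are not reported here.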

Additional observations from a re-analysis of the deposited data

Results flagged for a closer look

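Among the 48 named genes whose libraries were examined, 7 of 96 groups of 6 held a library whose gap to its neighbour exceeded Dixon's critical value, where chance gives about 1 in 20. SCM + IgG replicate 1 was the highest of its group for Aldh1a3 (27.9 CPM, next 9.90) and Sprr2a3 (324 CPM, next 205) and the lowest for Chga (66.4 CPM, next 104). SCM + IgG replicate 5 was the lowest for Tnfrsf11b at 29.7 CPM, and SCM + IgG replicate 4 for Vps9d1 at 5.24 CPM. QCM + IgG replicate 3 was the highest for Gstm7 at 30.9 CPM and for Id1 at 21.8 CPM.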

How the results depend on the processing

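The count of 140 called genes was 263 with DESeq2, 265 with only the 12 libraries in the fit, 267 without a fold cutoff, 76 at a fold over 2 and 4 by glmTreat against a fold of 1.5. With the replicate block, which rests on numbers not shown to pair the libraries, it was 496, holding 139 of the 140 genes, and 432 with the block in the 12 libraries alone. Of the 6 SCM libraries, 3 were closest to the QCM library of their own number. Leaving out 1 library gave 35 to 186 genes, and leaving out both libraries of a number under the block, chosen after seeing the data, gave 396, 457, 435, 418, 493 and 541 for numbers 1 to 6. The other 6 settings stayed within 1.5 times of 140, of which voom gave 122 raised and 48 lowered on quantile-normalized values and 113 and 40 with TMM. Under the block, with which 2.74% of all genes tested were called higher against 0.761% without it, the fetal list went from 5 to 15 of 19 called higher, the YAP/TEAD list from 3 to 8 of 20, the squamous list from 2 to 7 of 15, the serpin list from 3 to 7 of 16, the integrin and laminin list from 3 to 9 of 24, the EGFR list from 1 to 8 of 25 and the BMP list from 3 to 6 of 19. Of lists with no member called otherwise, it called 3 NF-kB genes higher and 1 lower, 2 hypoxia genes higher, 1 metallothionein and zinc gene lower, 1 enteroendocrine gene higher and 1 lower, 1 enterocyte gene higher and 3 lower, Slc13a2 among them, and 1 stem cell gene, Smoc2, lower. In the fluid secretion list 2 were higher and 1 lower. Without the replicate block but with the 12 libraries alone, Nab2 lost its call, and with both so did Nab2 and Vps9d1. Members of the lists called, 23 in the model described, were 78 with the block, 73 with the block in the 12 libraries alone, 45 in the 12 libraries alone and 37 with DESeq2. At a fold over 2, 33.3% of the lowered genes were also lowered by Wnt5a and 66.7% in SCM + anti-Ptk7, each of 3 genes. The cause of these shifts was not tested, apart from the thresholds themselves. Of 40 named called genes none reversed under the 11 settings other than left-out libraries, and 40 kept their call with DESeq2 and with the block, 37 with voom by either scaling, 32 without the filter and 3 under glmTreat. Over the left-out libraries the log2 fold change ran from −0.00252 to 0.195 for Olfm4, −0.0988 to 0.00363 for Lyz1 and −0.0800 to 0.0230 for Mki67, and so changed sign. Ctse, a gene with few counts, averaged 1.26 CPM in QCM. Its adjusted p was 0.0328 by edgeR's test, 7.16e-06 with the block and 0.272 with voom on quantile-normalized values. The cause of these differences was not tested.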

Other observations

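Genes of caveolae, the flask-shaped pits of the plasma membrane, were read as a family after Cav2 had been named, so that this set was chosen after its values were seen, rests on no fixed list and was not tested as a set. Beside Cav2, the coat proteins Cavin1 and Cavin3 and the neck protein Ehd2 were called higher in SCM. Of all genes tested 0.761% were, a share that is no measure for members picked in this way. Cavin1 was at 10.8 to 38.02 CPM in QCM and 31.2 to 83.3 CPM in SCM (log2 fold change 1.46, adjusted p = 0.0384, edgeR's quasi-likelihood test). Cavin3 was at 0.978 to 5.45 CPM and 3.61 to 27.8 CPM (1.97, adjusted p = 0.0397), and Ehd2 at 2.22 to 7.07 CPM and 4.26 to 18.7 CPM (1.43, adjusted p = 0.0464). Cav1 had no count in any QCM library and 0 to 2.47 CPM in SCM (adjusted p = 0.0567). Pacsin3 (0.87, adjusted p = 0.103) and Pacsin2 (0.24, adjusted p = 0.37) were not called.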
